A study of Saccharomyces cerevisiae with 6 samples.

Results

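The genes described are those of the HSP90 chaperone system of the budding yeast Saccharomyces cerevisiae. They are the HSP90 genes HSC82 and HSP82 and 8 co-chaperone genes (STI1, AHA1, HCH1, CPR6, CPR7, SBA1, CDC37 and SGT1). They were chosen by name, with no threshold on their values but with earlier results of these data known, and are 10 of the 7126 gene rows of the count table. All 10 passed the filter on low counts. Poly(A)-selected RNA was sequenced from a strain with unchanged actin (WT) and a strain carrying the R256C substitution in actin, an arginine replaced by cysteine that in human alpha actin is a disease variant; both are labelled S288C, and no other allele is named. Each strain gave 3 libraries, from separately inoculated cultures in the rich medium YPD at 30 °C, diluted to an optical density of 0.3, collected at 0.9 and not treated. The series relates this actin residue to transcription, so the comparison asks which mRNA levels differ between the strains. Whether each strain is more than 1 isolate is not given in the sources used here, so a further difference between them cannot be told apart from R256C.

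HSP90 is an abundant dimeric chaperone of the cytosol that binds and hydrolyses ATP while it holds client proteins, among them many protein kinases and transcription factors. Co-chaperones load clients, slow or speed the ATPase, or bring a class of client. In yeast the heat shock factor Hsf1 activates many of these genes, HSC82 is the constitutive HSP90 gene and HSP82 the more strongly heat-induced one, and either gene alone keeps the cell alive.

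The coding sequences of HSC82 and HSP82 are near copies, which matters because reads placed at several loci were not counted in genes. Over 2133 aligned columns 91.7% of bases were identical, with 160 mismatches and 18 gap columns. The longest stretch without a difference was 113 bases, the same in both genes, and is shown because a shorter read inside it cannot be assigned to either gene (reference build R64; HSC82 at chrXIII:634095-634207 on the plus strand, HSP82 at chrXVI:96761-96873 on the minus strand):
shared run: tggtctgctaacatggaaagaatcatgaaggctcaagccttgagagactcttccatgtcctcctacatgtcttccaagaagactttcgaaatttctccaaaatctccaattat
The last 45 coding bases encode the tail to which many co-chaperones dock. They differed at 4 positions, in capitals (HSC82 at chrXIII:634428-634472, HSP82 at chrXVI:96496-96540):
HSC82 tail: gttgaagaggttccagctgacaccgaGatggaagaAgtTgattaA
HSP82 tail: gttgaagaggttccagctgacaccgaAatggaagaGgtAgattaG
Of the 50-base windows of the coding sequence, 93.6% occurred at a single place in the genome for each of the 2 genes, and of the 100-base windows 99.3%. Most of each gene could therefore be counted separately, although the read length is not given in the sources used here. For the 8 co-chaperone genes every window of either length was found at a single place. None of the 10 genes overlaps another gene of the R64 annotation, and each has 1 coding exon.

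The stretches before the start codons show where the letters of the heat shock element, the binding motif of Hsf1, occur. The motif is built of alternating GAA and TTC units. Its 2-unit form was searched as TTCNNGAA or GAANNTTC, each of which reads the same on both strands, in the 300 bases before the start codon. Capitals mark the matches in HSC82 (chrXIII:632055-632354, plus strand) and HSP82 (chrXVI:98626-98925, minus strand):
HSC82: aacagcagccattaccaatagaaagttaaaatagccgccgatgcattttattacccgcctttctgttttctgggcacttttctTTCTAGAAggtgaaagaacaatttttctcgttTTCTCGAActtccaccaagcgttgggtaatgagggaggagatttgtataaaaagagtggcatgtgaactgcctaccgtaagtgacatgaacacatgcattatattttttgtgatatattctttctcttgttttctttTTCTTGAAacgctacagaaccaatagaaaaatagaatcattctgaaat
HSP82: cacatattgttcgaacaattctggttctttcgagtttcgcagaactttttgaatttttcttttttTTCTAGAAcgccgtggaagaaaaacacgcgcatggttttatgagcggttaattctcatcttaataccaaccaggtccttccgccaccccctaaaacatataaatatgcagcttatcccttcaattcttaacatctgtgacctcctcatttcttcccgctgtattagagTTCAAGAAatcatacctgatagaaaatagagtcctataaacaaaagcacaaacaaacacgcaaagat
Shorter windows carry the matches of 5 co-chaperone genes. They are STI1 (chrXV:380801-380859, plus), AHA1 (chrIV:892575-892614 and chrIV:892760-892799, plus), HCH1 (chrXIV:108291-108330, plus), CPR6 (chrXII:573303-573359, minus) and SBA1 (chrXI:220246-220285, plus). In STI1 the capitals mark the longer 3-unit form, TTCNNGAANNTTC or its reverse complement GAANNTTCNNGAA, each of which contains a pair of overlapping 2-unit matches:
STI1: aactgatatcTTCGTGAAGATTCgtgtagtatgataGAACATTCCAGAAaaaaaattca
AHA1, distal: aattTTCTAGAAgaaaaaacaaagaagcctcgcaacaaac
AHA1, proximal: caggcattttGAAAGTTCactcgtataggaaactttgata
HCH1: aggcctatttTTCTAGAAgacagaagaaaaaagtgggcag
CPR6: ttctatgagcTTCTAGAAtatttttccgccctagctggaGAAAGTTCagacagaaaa
SBA1: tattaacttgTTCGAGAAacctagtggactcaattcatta
A 2-unit match was present in 7 of the 10 genes (70.0%) and in 22.4% of the 6001 windows of the same length before coding genes. STI1 alone among the 10 held the 3-unit form, which 0.867% of all windows held. CPR7, CDC37 and SGT1 had no match, which says only that these letters are not in this window. The stress response element AGGGG, searched on both strands, was found before HSP82 and SBA1, and in 22.2% of all windows.

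Reads counted in genes ranged from 8967232 to 16905818 per library, and 6337 genes were tested. WT replicate 2 stood apart from the other WT libraries: correlations of log2 CPM were 0.976 to 0.993 within WT and 0.992 to 0.994 within R256C. Values of WT replicate 2 are therefore named where they touch a result, and values per library are listed below in the order of replicates 1, 2 and 3. The a-specific mating genes MFA1, MFA2 and STE2 lay between 322 and 1687 CPM in every library, and their sum was 2536 to 2809 CPM in WT and 2746 to 2947 CPM in R256C. The alpha-specific genes, the pheromone genes MF(ALPHA)1 and MF(ALPHA)2 and the receptor gene STE3, lay between 0.635 and 19.9 CPM, and none was at 0. Their sum was 16.8 to 22.7 CPM in WT and 23.8 to 26.0 CPM in R256C. MF(ALPHA)1, at a mean of 0.671 CPM in WT and 1.54 CPM in R256C, was called as higher (log2 fold change 1.19, edgeR adjusted p = 0.0268). That call was lost in 6 of 12 alternatives, and MF(ALPHA)2 and STE3 did not pass. All 6 libraries thus had the transcripts of mating type a. ACT1, the actin gene, averaged 1738 ± 312 CPM (WT) and 1377 ± 25.2 CPM (R256C; SD, n = 3 each; log2 fold change -0.34, edgeR adjusted p = 0.124), with every R256C library below every WT library. DESeq2 called ACT1 as lower (adjusted p = 0.0471; 0.0471 to 0.271 over the alternatives), and without WT replicate 2 the change was -0.18. The level of ACT1 cannot check a point substitution.

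Most of the 10 genes were lower in R256C. HSC82, HSP82 and the co-chaperone genes STI1, CPR6, HCH1, AHA1 and CDC37 fell, by 1.65-fold to 2.53-fold. CPR7, SBA1 and SGT1 did not pass the test, and none of the 10 rose, though CPR7 was called as higher when WT replicate 2 was left out. Calls required p below 0.05 after Benjamini-Hochberg adjustment over all 6337 genes, with the quasi-likelihood test of edgeR. The count of 7 in 10 that fell stands beside 21.4% of all genes tested, and the count of 0 that rose beside 21.2%. HSC82, HSP82, STI1 and CPR6, 4 of the 10, were called with an estimated fall of at least 2-fold, beside 2.82% of all genes. Whether a fall exceeded 2-fold was not tested, and HSP82 lay close to that bound (log2 fold change -1.02 with SE 0.15). The count was 3 with library totals alone and when 10 CPM in 3 libraries was required. It was 3 to 4 when 1 library was left out. In 8 of the 10 genes every R256C library lay below every WT library, as in 27.3% of all genes, and in the remaining 2 genes, CPR7 and SGT1, the strains overlapped. The median log2 fold change of the 10 genes was -0.82, and that of all genes was -0.01. Scaled by library totals alone, 64.9% of the calls over all genes were rises, against 49.8% with TMM, and still 7 of the 10 fell. CPM, read counts scaled to library size with TMM factors, are shares of a library, so fewer cells with a transcript and less of it per cell cannot be told apart.

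**Figure D1:**
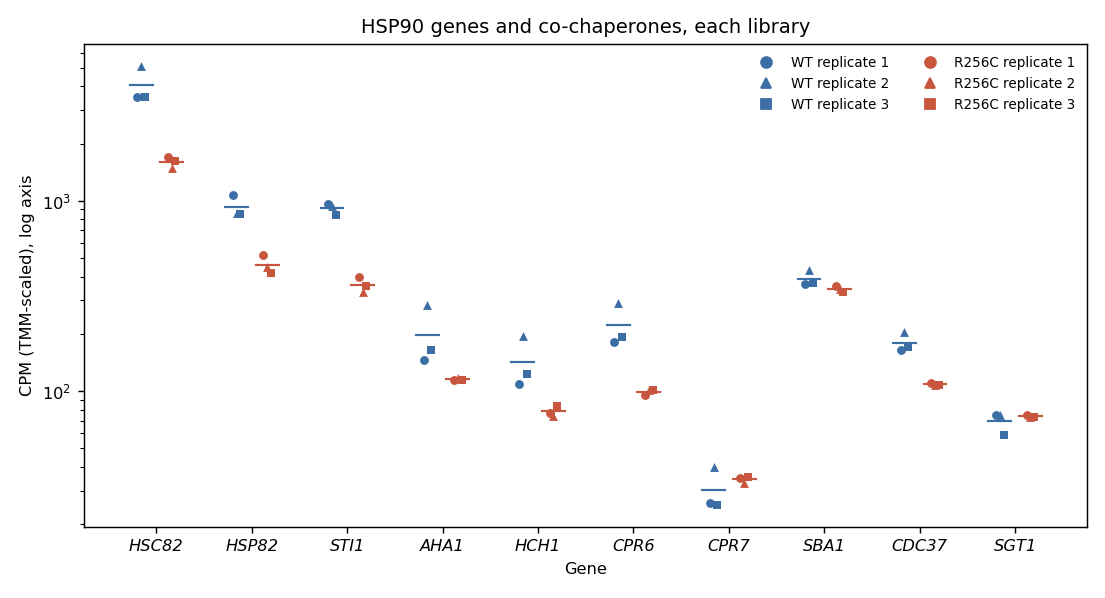
Level of each HSP90 system gene in each library (CPM, TMM-scaled, log axis), with WT in blue, R256C in red, a marker shape for each replicate number and a line at each strain's mean of 3 libraries. The strains separate in every gene except CPR7 and SGT1, narrowly in SBA1, and WT replicate 2 (triangle) is the highest WT library in 7 of the 10 genes.

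HSC82 (YMR186W, chromosome XIII, 632355 to 634472) was the most abundant of the 10 transcripts in every library. It was at 3498, 5113 and 3518 CPM in the WT libraries, and at 1699.7, 1486 and 1611 CPM in the R256C libraries. The strains did not overlap, with the lowest WT library above the highest R256C library. The means were 4043 ± 926 and 1599 ± 108 CPM (SD, n = 3 each), a 2.53-fold lower level in R256C (log2 fold change -1.34 with SE 0.20, edgeR adjusted p = 0.00111). HSC82 held the place 56 from the lowest log2 fold change among the genes tested. Without WT replicate 2, in which it was highest, the change was -1.14.

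HSP82 (YPL240C, chromosome XVI, 96496 to 98625), the heat-induced HSP90 gene, was at 1076, 867 and 854 CPM in the WT libraries. In the R256C libraries it was at 519, 446 and 417 CPM, below every WT library. Its highest WT library was replicate 1, not replicate 2 as for HSC82. From 932 ± 125 to 461 ± 52.5 CPM (SD, n = 3 each), HSP82 was 2.02-fold lower (log2 fold change -1.02 with SE 0.15, edgeR adjusted p = 0.000961).

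The balance between the HSP90 genes was compared within libraries, where library scaling has no part. HSP82 made up 23.5%, 14.5% and 19.5% of the reads of both genes in the WT libraries, and 23.4%, 23.1% and 20.6% in the R256C libraries. WT replicate 2 had the lowest share (95% Wilson interval 14.3 to 14.7%, counting error only), and the strains overlapped. WT averaged 19.2 ± 4.52% and R256C 22.4 ± 1.56% (SD, n = 3 each), a difference of 3.17 percentage points with p = 0.4 (two-sided exact permutation test, in which 0.1 is the smallest value 3 against 3 libraries can give). Dividing by the windows found at a single place left the difference at 3.16 points, and without WT replicate 2 it was 0.829 points. A difference between the falls of HSC82 and HSP82 was thus not detectable with these libraries.

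STI1 (YOR027W, chromosome XV, 381053 to 382822) encodes the adaptor that binds Hsp70 and HSP90 together and hands over clients. It was at 957, 943 and 846 CPM in the WT libraries, and at 395, 334 and 357 CPM in the R256C libraries. The WT libraries lay close together and far above those of R256C. STI1 was 2.53-fold lower, with means of 915 ± 60.4 and 362 ± 31.2 CPM (SD, 3 libraries each; R256C against WT log2 fold change -1.34 with SE 0.12, edgeR adjusted p = 0.00012). Its fall was as large as that of HSC82, and its adjusted p was the smallest of the 10 genes.

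AHA1 and HCH1 encode related proteins; Aha1 is the strongest known activator of the HSP90 ATPase, and Hch1 corresponds to its first domain. AHA1 (YDR214W, chromosome IV, 892875 to 893927) was at 146, 283 and 164 CPM in the WT libraries, and at 115, 117 and 115 CPM in the R256C libraries. HCH1 (YNL281W, chromosome XIV, 108467 to 108928) was at 109, 195 and 124 CPM in WT and at 76.5, 73.9 and 83.9 CPM in R256C. In both genes WT replicate 2 was far above the other WT libraries, and no R256C library reached the lowest WT library. AHA1 fell 1.71-fold (log2 fold change -0.78 with SE 0.22, edgeR adjusted p = 0.0224, n = 3 each) and HCH1 fell 1.83-fold (-0.87, SE 0.20, adjusted p = 0.00907). Without WT replicate 2 the changes were -0.43 for AHA1 (adjusted p = 0.000365) and -0.58 for HCH1 (7.43e-05). The call of AHA1 was lost without R256C replicate 1 (adjusted p = 0.0736), 2 (0.0813) or 3 (0.0726), and that of HCH1 without R256C replicate 2 (0.0505). Over all 13 alternatives the adjusted p ranged from 0.000365 to 0.0813 for AHA1 and from 7.43e-05 to 0.0505 for HCH1.

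The cyclophilin genes CPR6 and CPR7 encode prolyl isomerases that dock on the HSP90 tail; CPR6 fell and CPR7 did not pass, and the difference between them was not tested. CPR6 (YLR216C, chromosome XII, 572096 to 573211) was at 182, 289 and 193 CPM in the WT libraries, and at 95.6, 101 and 101 CPM in the R256C libraries. All R256C libraries were below all WT libraries, and CPR6 fell 2.23-fold (log2 fold change -1.16 with SE 0.17, edgeR adjusted p = 0.00107, n = 3 each). CPR7 (YJR032W, chromosome X, 491081 to 492262) was at 25.9, 40.1 and 25.2 CPM in WT and at 35.1, 33.1 and 35.2 CPM in R256C. The R256C libraries of CPR7 lay above WT replicates 1 and 3 and below WT replicate 2. CPR7 did not pass (log2 fold change 0.17 with SE 0.18, edgeR adjusted p = 0.458). Without WT replicate 2 it was called as higher (0.43, adjusted p = 0.00315), so that 1 library decides this value; over the 13 alternatives its adjusted p ranged from 0.00315 to 0.84.

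SBA1 (YKL117W, chromosome XI, 220324 to 220974), the yeast p23, binds the closed ATP-bound form of HSP90. It was at 365, 433 and 370.2 CPM in the WT libraries, and at 355, 342 and 331 CPM in the R256C libraries. The strains were separated by a narrow margin, since the highest R256C library was 355 and the lowest WT library 365 CPM. SBA1 did not pass (log2 fold change -0.18 with SE 0.11, edgeR adjusted p = 0.195, n = 3 each).

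CDC37 and SGT1 bring particular clients to HSP90: Cdc37 serves protein kinases, and Sgt1 acts in assembly of the kinetochore and of SCF ubiquitin ligases. CDC37 (YDR168W, chromosome IV, 790328 to 791848) was at 164, 203 and 170.0 CPM in the WT libraries, and at 110.0, 108 and 108 CPM in the R256C libraries. The R256C libraries were nearly equal and all below WT. CDC37 fell 1.65-fold (log2 fold change -0.72 with SE 0.10, edgeR adjusted p = 0.000863, n = 3 each). SGT1 (YOR057W, chromosome XV, 432186 to 433373) was at 75.3, 75.0 and 58.9 CPM in WT and at 74.7, 72.9 and 73.1 CPM in R256C. Its R256C libraries lay inside the range of WT, and it did not pass (log2 fold change 0.08 with SE 0.11, edgeR adjusted p = 0.61). Without WT replicate 3, the lowest WT library, the value was -0.03.

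**Figure D2:**
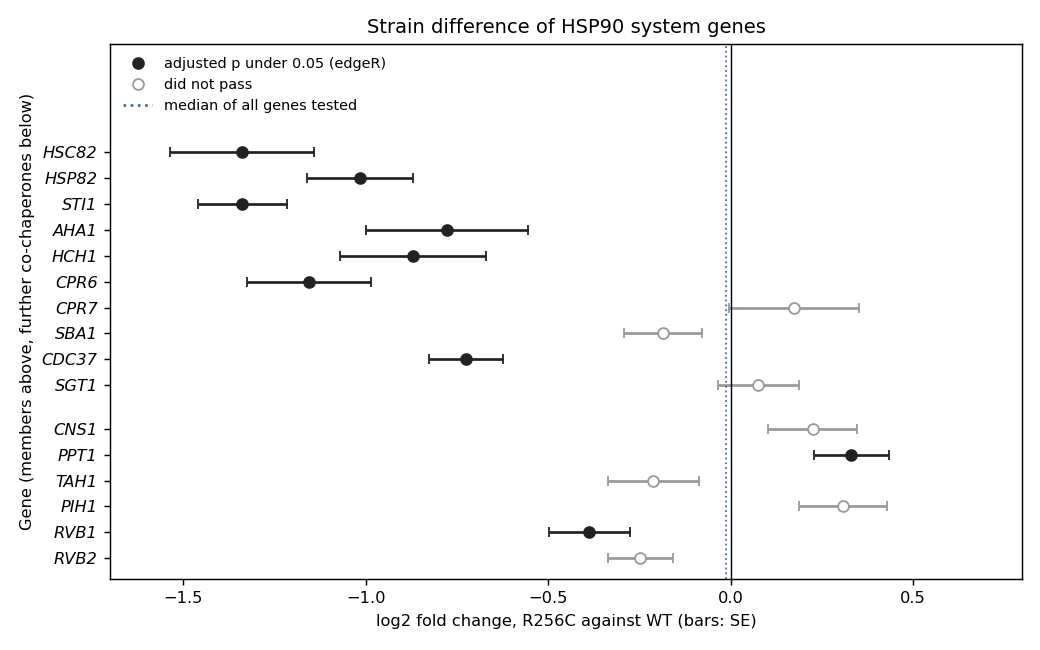
Log2 fold change of R256C against WT for the 10 genes (upper) and for 6 further HSP90 co-chaperone genes (lower), with bars for the SE from 3 libraries per strain, filled points for genes called by edgeR and a dotted line at the median of all genes tested (-0.01). The 7 called members lie between -1.34 and -0.72, and the 3 uncalled members (-0.18 to 0.17) lie within the range of the further co-chaperones (-0.39 to 0.33).

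Co-chaperone reads were lower by a smaller factor than HSP90 reads. HSC82 and HSP82 together held 4575, 5980.0 and 4372 CPM in the WT libraries, and 2219, 1932 and 2028 CPM in the R256C libraries. The 8 co-chaperones together held 2024, 2462 and 1951 CPM in WT and 1257, 1182 and 1203 CPM in R256C. Neither sum overlapped between strains, and in 27.3% of all single genes every R256C library also lay below every WT library. The R256C mean was 0.414 of the WT mean for the HSP90 genes and 0.566 for the co-chaperones. The log2 ratio of co-chaperone to HSP90 reads was -1.18, -1.28 and -1.16 in WT and -0.82, -0.71 and -0.75 in R256C. It was higher in every R256C library, as were 94% of the 6335 other genes tested when set against HSP90 reads. The difference was 0.45 on the log2 scale, with p = 0.1 in an exact permutation test, the smallest value that test can give here. With the mean of log2 counts in place of the sum, which keeps abundant genes from deciding, it was 0.59. STI1 was the largest co-chaperone term of the sum in 5 of the 6 libraries; in R256C replicate 2 it was SBA1.

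Set against HSP90 reads, 2 co-chaperones overlapped between the strains and 6 were higher in every R256C library, as were 94% of the 6335 other genes tested. Since HSP90 reads were lower in R256C, a gene that was lower by less lies higher on this scale. The median gene stood at 2.37 times its WT mean, and the values below are therefore a description. None of the 8 co-chaperones passed an exact permutation test (Benjamini-Hochberg adjusted p from 0.133 to 0.5), in which the smallest unadjusted p possible is 0.1. STI1 had 20.9, 15.8 and 19.4 reads per 100 HSP90 reads in the WT libraries, and 17.8, 17.3 and 17.6 in the R256C libraries. CPR6 had 3.98, 4.83 and 4.41 in WT and 4.31, 5.25 and 4.98 in R256C. Both overlapped between strains, and their means stood at 0.94 and 1.10 times WT. CPR7 had 0.566, 0.67 and 0.577 reads per 100 HSP90 reads in WT and 1.58, 1.71 and 1.74 in R256C. SGT1 went from 1.42 ± 0.205 to 3.58 ± 0.205, and SBA1 from 7.89 ± 0.614 to 16.7 ± 0.911 (mean ± SD, n = 3 each). AHA1, HCH1 and CDC37 stood at 1.44, 1.35 and 1.46 times their WT mean. CPR7 and SGT1, at 2.77 and 2.53 times, lay above the median gene, and SBA1 at 2.11 times and these 3 below it.

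**Figure D3:**
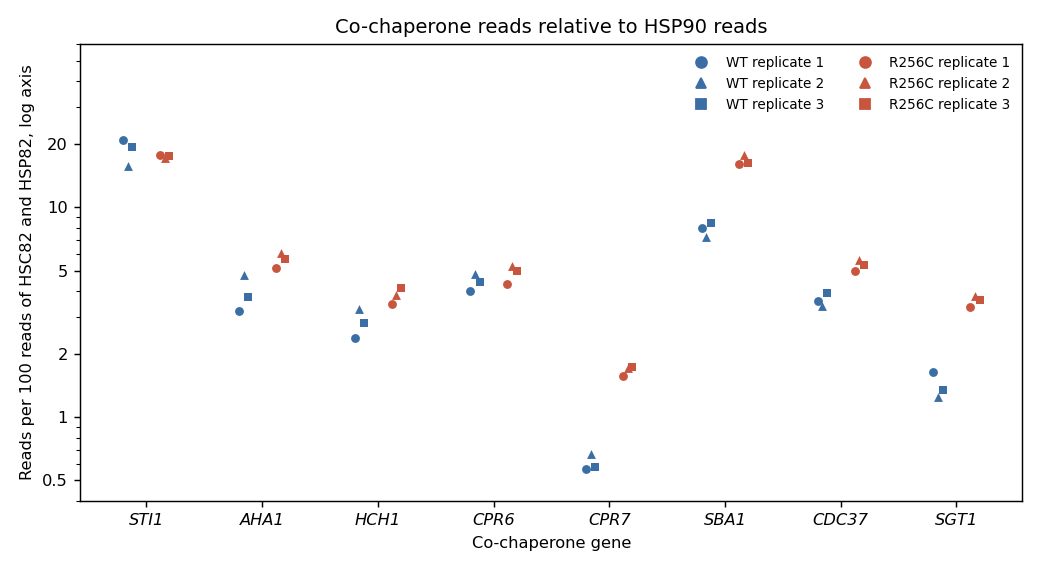
Reads of each co-chaperone gene per 100 reads of HSC82 and HSP82 in each library (log axis), with WT in blue, R256C in red and a marker shape for each replicate number. STI1 and CPR6 overlap between strains, and CPR7, SBA1 and SGT1 show the widest gaps, with R256C means at 2.77, 2.11 and 2.53 times WT, beside 2.37 times for the median gene.

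Compared per length, as CPM per kilobase of coding sequence, the levels in WT spanned HSC82 at 1909 ± 437 to CPR7 at 25.7 ± 7.08 (SD, n = 3). HSC82 held place 47 of 6007 coding genes in WT and place 168 in R256C, where it was at 755 ± 50.8 CPM per kilobase. For these places the CPM of every gene was divided by its length in the annotation, which was not checked against the coding length. SBA1 was second in both strains, at 598 ± 58.6 in WT and 526 ± 19.0 in R256C. In WT it was followed by STI1 (517), HSP82 (438), HCH1 (309), CPR6 (198), AHA1 (188), CDC37 (118), SGT1 (58.7) and CPR7. The ranges over WT libraries overlapped for the neighbours STI1 and HSP82, HSP82 and HCH1, HCH1 and CPR6, and CPR6 and AHA1. In R256C the order was the same except that HSP82 (216) stood before STI1 (205), with overlapping ranges, and AHA1 (110) stood before CPR6 (89.1), with ranges that did not overlap. The 10 genes together took 0.629 to 0.759% of reads in genes in WT and 0.324 to 0.358% in R256C.

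The WT libraries differed from each other in these genes more than those of R256C did. The median coefficient of variation of the 10 genes was 18.2% in WT and 3.52% in R256C, beside 11.0% and 6.10% for the 5499 genes with at least 10 CPM. WT replicate 2 was the highest WT library in 7 of the 10 genes, as in 40.2% of all genes tested. Against the mean of the other WT libraries (log2), it was higher by 0.87 in AHA1, 0.75 in HCH1, 0.64 in CPR7, 0.62 in CPR6 and 0.54 in HSC82, and HSP82 stood at -0.14. The median of the 10 genes in this library was 0.41, and that of all genes was -0.04. Lists of other heat shock genes stood on the other side in the same library, with a median of -0.47 for Hsp70 partners, -0.50 for further heat shock genes and -0.60 for general stress genes. The part of these shifts in the strain differences was not tested; without WT replicate 2 the median of the 10 genes was -0.60, and 7 still fell.

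**Figure D4:**
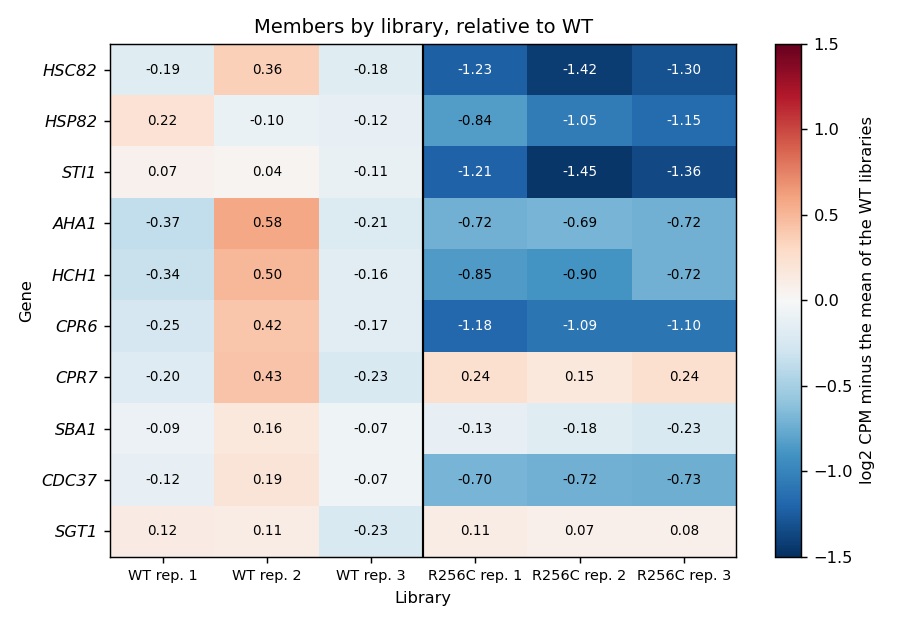
Log2 CPM of each gene in each library minus the mean of its 3 WT libraries, printed in each cell and coloured from blue (lower) to red (higher). In R256C 7 rows are uniformly lower, by up to 1.45, while CPR7, SBA1 and SGT1 lie between -0.23 and 0.24, and WT replicate 2 stands out as higher in AHA1 and HCH1.

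The order of the falls was set beside the heat shock element matches shown above. Among the 7 genes with a 2-unit match, log2 fold changes ran from -1.34 to -0.18 with a median of -1.02, and 6 were called. Among the 3 without a match they ran from -0.72 to 0.17 with a median of 0.08, and CDC37 was called. Over all tested genes the same split showed little: 23.2% of 1312 genes with a 2-unit match fell (median -0.03), and so did 22.7% of 4487 genes without one (median -0.03). Of 51 tested genes with the 3-unit form, STI1 among them, 15 fell (29.4%) and 8 rose (15.7%), with a median of -0.24. Among genes without a 2-unit match, 22.7% fell and 20.6% rose. These counts are descriptions and were not tested.

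**Figure D5:**
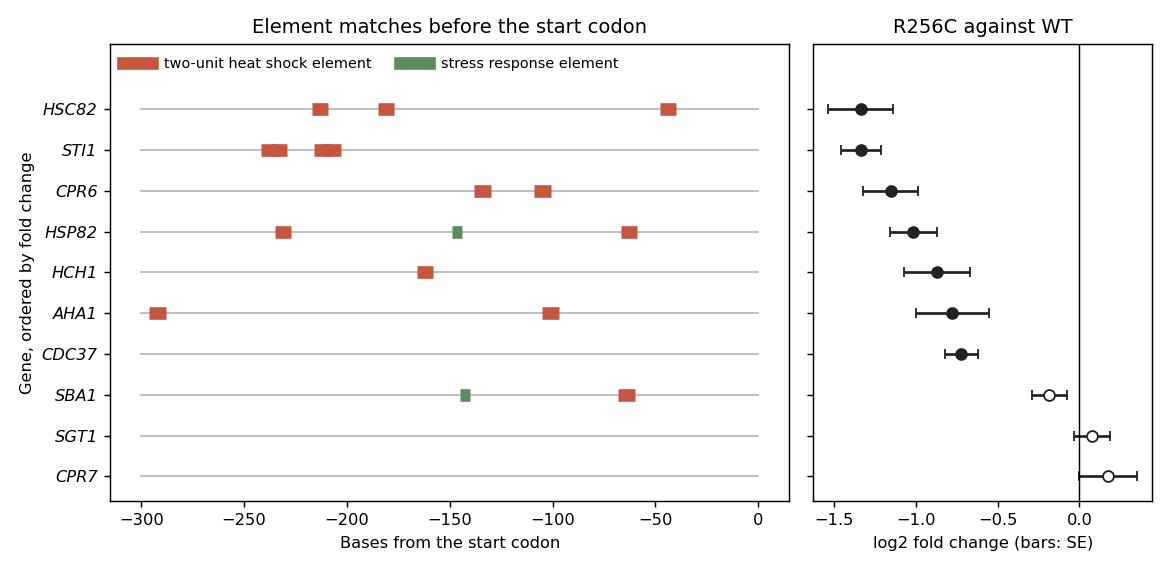
Left, positions of 2-unit heat shock element matches (red) and stress response element matches (green) in the 300 bases before the start codon of each gene, in bases from the start codon. Right, the log2 fold change of the same gene with its SE (3 libraries per strain), filled where called; the 6 genes with the largest falls all have a match, and SBA1 has a match but was not called.

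Co-chaperones of HSP90 outside the 10 genes were also looked up. Of 6 further co-chaperone genes, 1 fell, 1 rose and 4 did not pass, near the 21.4% and 21.2% of all genes, with a median log2 fold change of 0.01. The gene that fell was RVB1 (362 ± 44.1 CPM in WT, 277 ± 7.70 CPM in R256C, SD, 3 libraries per strain; log2 fold change -0.39 with SE 0.11, edgeR adjusted p = 0.0228), an ATPase of the R2TP complex that works with HSP90. PPT1, the phosphatase that acts on HSP90, rose (63.99 ± 3.84 to 80.6 ± 8.11 CPM; 0.33, SE 0.10, adjusted p = 0.0315). CNS1 (0.22) and the R2TP genes PIH1 (0.31), RVB2 (-0.25) and TAH1 (-0.21) did not pass. In PPT1 and PIH1 all R256C libraries lay above all WT libraries, as in 27.7% of all genes. The calls of RVB1 and PPT1 were lost in 4 and 5 of the 13 alternatives, with adjusted p from 0.00565 to 0.0945 and from 0.00442 to 0.137 over the alternatives. Without WT replicate 2, PIH1 (0.43, adjusted p = 0.00185) and CNS1 (0.34, 0.00448) were called as higher and RVB2 (-0.25, 0.0189) as lower; DESeq2 also called RVB2 (0.0286). Over the alternatives the adjusted p ranged from 0.00185 to 0.235 for PIH1, from 0.00448 to 0.439 for CNS1 and from 0.0189 to 0.256 for RVB2.

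Genes that work upstream of HSP90 or share its regulator, and a list of general stress genes, were counted in the same way. Over all genes tested 21.4% fell and 21.2% rose. Of 10 genes of Hsp70 and its helpers, 5 fell and none rose (median -0.67). SSE1, a nucleotide exchange factor, was at -1.30, FES1, another exchange factor, at -1.12 and the J-protein gene YDJ1 at -0.96 (edgeR adjusted p = 0.00171, 0.00147 and 0.00123). SSA1 (-0.71) and SSA2 (-0.49), the main cytosolic Hsp70 genes, were also among the 5 that fell (edgeR adjusted p = 0.0269 for each). They are near copies, with 42.1 and 41.9% of their 50-base windows found at a single place, so their separate values are uncertain. Of 12 further heat shock genes, 8 fell and none rose, beside the same 21.4% and 21.2% (median -1.10), among them the mitochondrial chaperonin genes HSP60 (-1.25) and HSP10 (-1.06) and CUR1 (-1.15), a sorting factor (adjusted p = 0.000159, 0.000217 and 0.000233). HSF1, the gene of the regulator itself, is among these 12 and among the 8 that fell (WT 263 ± 7.02 CPM, R256C 219.7 ± 7.75 CPM, SD, n = 3 each; log2 change -0.26, edgeR adjusted p = 0.0364). It was named after its value had been seen. Of 10 general stress genes none fell and 4 rose, again beside 21.4% and 21.2%. The 4 included TPS2 (1.95) of trehalose synthesis, GSY2 (1.29) of glycogen synthesis and the catalase gene CTT1 (0.86), with edgeR adjusted p of 0.000611, 0.00172 and 0.00261. The median of the 10 was 0.47, and the 6 that did not pass had values of either sign, down to -0.65.

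Of 16 genes of HSP90 clients and client partners, 5 fell and 2 rose (median -0.05), beside 21.4% and 21.2% of all genes. SWE1, the mitotic inhibitor kinase, was at -0.95, and CTF13, a kinetochore protein that needs Sgt1, at -0.79 (edgeR adjusted p = 0.002 and 0.00259). SLT2, the kinase of the cell wall integrity pathway, rose by 0.80 (adjusted p = 0.000353). Among 7 immunophilin genes outside the HSP90 system, 3 fell and none rose (median -0.37). They were CPR5 of the endoplasmic reticulum (-1.01), CPR2 of the secretory pathway (-0.75) and CPR1, the cytosolic cyclophilin A (-0.68), with adjusted p of 0.000215, 0.00292 and 0.00842.

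Genes whose profile over the 6 libraries was nearest to that of HSC82 were mostly not chaperones. Nearness was the root mean square distance of log2 CPM, each gene centred on its own mean, over 5498 other genes with at least 10 CPM. The nearest genes outside the 10 were RPL25 (distance 0.064) and RPL22B (0.10), both ribosomal protein genes, MIN10 (0.11), the cell surface protease gene MKC7 (0.13) and GCV3 (0.14) of glycine cleavage. CPR6 (0.13) lay among them and STI1 (0.17) was place 16, while HSP82 (0.30) was place 138. Nearest to HSP82 were the kinase gene DBF20 (0.087), the mating fusion gene FUS1 (0.10), the Aurora kinase gene IPL1 (0.10), the gamma-tubulin gene TUB4 (0.11) and PGC1 (0.11), a phospholipase gene. From HSP82, STI1 (0.19) was place 141 and HSC82 place 627. Among WT libraries the HSP90 genes had different peaks, replicate 2 for HSC82 and replicate 1 for HSP82.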

How the data were processed

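The authors deposited 1 table of whole-number read counts per gene, not normalized, for 6 libraries; per the submitters' processing notes TopHat, HTSeq and DESeq were used with build R64, with versions, settings and use of strand not given in the sources used here. The 5 summary rows of the counter, which name no gene, entered neither library sizes nor tests. Reads outside any gene made up 3.15 to 4.07% and ambiguous reads 7.43 to 8.13% of uniquely placed reads. Entries for reads placed at several loci were 53.1 to 57.2% of the sum of these entries and the uniquely placed reads. Whether such a read was entered more than once is not given in the sources used here. Of 7126 gene rows, 6048 matched the R64 annotation by locus tag; where the other 1078 lie is not known here, so overlap of the 10 genes with them was not checked. All pairs of libraries within a strain differed by more than sampling noise (chi-square over its degrees of freedom at least 7.15).

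The counts were fitted with edgeR 4.0.16 under R 4.3.3 (filterByExpr, TMM, glmQLFit and glmQLFTest, genotype as the only term, Benjamini-Hochberg over 6337 genes; common biological coefficient of variation 0.133). The SE was computed as the size of the log2 fold change over the square root of F. Log2 CPM used a prior count of 2. Exact permutation tests (SciPy 1.17.1) were run on the HSP82 share, the co-chaperone to HSP90 ratio and each co-chaperone per HSP90 read. The last were adjusted over the 8 co-chaperones by Benjamini-Hochberg. Wilson intervals (95%) cover counting error only. Scripts were tested on simulated data. Alternatives were DESeq2 1.42.0, limma-voom (limma 3.58.1), scaling by DESeq2 size factors or by library totals alone, testing without a filter, requiring 10 CPM in 3 libraries, a replicate block, and dropping each library in turn.

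The 10 genes and the lists of other genes were chosen with earlier results of these data known. Named genes were the 10, the 6 further co-chaperones, ACT1, the mating type markers, up to 3 genes with the smallest p of each other list, and the 5 nearest profiles of each HSP90 gene; the sequence motifs and the genes HSF1, SSA1 and SSA2 were added afterwards.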

Additional observations from a re-analysis of the deposited data

How the results depend on the processing

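The 7 falls among the 10 genes were called under all 7 alternatives that keep the 6 libraries, the replicate block among them, and 5 to 7 were called when 1 library was left out. The median log2 fold change of all 10 genes ranged from -0.93 to -0.60 when 1 library was left out. The difference in HSP82 share ranged from 0.829 to 5.34 percentage points and that of the co-chaperone to HSP90 ratio from 0.41 to 0.48. Leaving out 1 library gave 1737 to 3759 genes called of all tested (822 to 1884 fell, 876 to 1875 rose), beside 2703 (1358 and 1345) with all 6. The highest count, 3759, came without WT replicate 2, and the lowest, 1737, without WT replicate 3; the cause was not tested. With library totals alone 886 genes fell; this setting moved the median of all genes by 0.10. When 1 library was left out SGT1 ranged from -0.031 to 0.13 and STE2 from -0.064 to 0.088. With the replicate number as a block 2431 genes were called. Same-numbered libraries of the strains showed no sign of being paired (correlations of deviations -0.122, -0.0694 and -0.0628, beside -0.0252 to 0.0829 for pairs with different numbers). Precision rests on 3 cultures per strain: SBA1, SGT1 and CPR7 cannot be called unchanged.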
